A study of Mus musculus with 5 samples.

Results

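Binding of PU.1 was examined around 9 receptor genes through which leukocytes read migration signals, in 2 kinds of mouse dendritic cell. The genes encode the CXC chemokine receptors Cxcr2, Cxcr3, Cxcr4, Cxcr5 and Cxcr6, the atypical chemokine receptor Ackr3, the chemerin receptor Cmklr1, and the sphingosine 1-phosphate (S1P) receptors S1pr1 and S1pr4. They were picked by name from 21887 protein-coding genes, and each gene locus was its span in the mm10 genome with 20 kb on each side. PU.1, the ETS-family factor encoded by Spi1, had been mapped by chromatin immunoprecipitation and sequencing (ChIP-seq) with the T-20 antibody. The cells were dendritic cells of the conventional type (cDCs) and of the plasmacytoid type (pDCs), both from Flt3L culture and from mice of a strain labelled C56BL/6. Replicates were biological, 2 for each cell type, and the 1 input library came from cDC chromatin without antibody. No genetic change and no agent other than Flt3L is named for any group. Nor do the labels state the age or sex of the mice, any pooling, or how the cells were sorted.

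Chemokine, chemerin and S1P receptors are membrane receptors that steer cells along gradients of their ligands, and all of these except Ackr3 signal mainly through G proteins. Cxcr4 and its ligand Cxcl12 are known for holding cells in bone marrow, Cxcr3 for entry into inflamed tissue, and S1pr1 for the exit of lymphocytes from lymphoid organs. pDCs, the cells known for type I interferon, enter lymph nodes from the blood, whereas cDCs carry antigen to lymph nodes from tissues. PU.1 binds DNA around a GGAA core and is used throughout the myeloid lineage and in B cells.

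The deposited counts cover windows of 10 bp, and 258 listed windows lay in the 9 loci. Of these, 235 passed the filter on low counts. Windows at most 100 bp apart were joined, which gave 44 sites, numbered in chromosome order within each gene. A value in CPM is the summed count of a site or locus, scaled to the library's window total after adjustment by trimmed mean of M values (TMM). Each log2 fold is pDC minus cDC with its standard error, n = 2 libraries per cell type. Its adjusted p comes from edgeR's quasi-likelihood test with Benjamini-Hochberg adjustment over all 60527 sites or all 16240 loci with windows. A site or locus was called at an adjusted p below 0.05.

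The 4 PU.1 libraries had window totals of 6896416 to 11388554 counts, and the input had 2776490. In the input, 74.6% of the counts fell in 146 repeat windows, which took 9.15% and 10.5% of the cDC libraries and 10.1% and 18.0% of the pDC libraries. Cell identity could be checked only as PU.1 signal at marker loci, which is not expression. Of 12 pDC marker loci 5 were called higher in pDCs, and of 13 cDC marker loci 2 were called higher in cDCs and 1 in pDCs. Over all gene loci, 11.0% were called higher in pDCs and 7.98% higher in cDCs. Of 8 B cell marker loci 3 were called higher in pDCs, and their summed signal, 420 and 418 CPM in cDCs, was 682 and 552 CPM in pDCs. Of 8 macrophage and neutrophil marker loci 2 were called higher in pDCs, with sums of 410 and 440 CPM in cDCs and the same in pDCs. For T and NK cell markers edgeR's quasi-likelihood test and DESeq2 each called 0 of 7 loci, 1 had an unadjusted p below 0.05, and the sums lay between 258 and 289 CPM. The part of other cells in the results was not tested. In bulk chromatin, binding in more cells and stronger binding per cell cannot be told apart.

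PU.1 signal was listed around 8 of the 9 receptor genes, and at most of those where it differed it was higher in pDCs. The loci of Cxcr2, Cxcr4, Cmklr1 and S1pr1 were called higher in pDCs and that of Cxcr6 higher in cDCs. Those of Cxcr3, Cxcr5 and S1pr4 were not called, and Ackr3 had no listed window. So 4 of 8 loci were higher in pDCs, where 11.0% of all loci were, and 1 was higher in cDCs, where 7.98% of all loci were. In either direction 19.0% of all loci were called. Site by site, 8 of the 44 were called higher in pDCs and 1 higher in cDCs, against 8.38% and 6.27% of all sites and 14.7% in either direction. Of those 8 sites, Cxcr4 site 3, Cmklr1 site 8 and S1pr1 sites 1 and 5 passed the filter on low counts only through the pDC libraries, so their count is a description and no support for a difference. The median log2 fold was 0.44 over the 44 sites and 0.02 over all sites, and 0.57 over the 8 loci and 0.05 over all loci. Of the 44 sites, 8 passed the filter only through the pDC libraries and 2 only through the cDC libraries. The median of the sites is therefore a description too. The sites kept through the pDC libraries alone lie in the loci of Cxcr4, Cmklr1, S1pr1 and S1pr4. Those kept through the cDC libraries alone lie in the loci of Cxcr2 and Cxcr5. As the loci sum these windows, the count of called loci and the median of the loci are a description as well. Scaling by window totals alone lowered the median of all loci by 0.12 and scaling by repeat windows lowered it by 0.51. None of the 5 called loci changed direction under either scaling, whereas the uncalled Cxcr3 and S1pr4 loci fell below 0 with scaling by repeat windows. At a minimum fold of 1.5 only Cxcr2 stayed called, and with scaling by repeat windows none of the 5 did. Relative to the median of all loci their values were then 1.05 for Cxcr2, 0.74 for Cxcr4, 0.71 for Cmklr1, 0.77 for S1pr1 and −0.96 for Cxcr6.

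**Figure D1:**
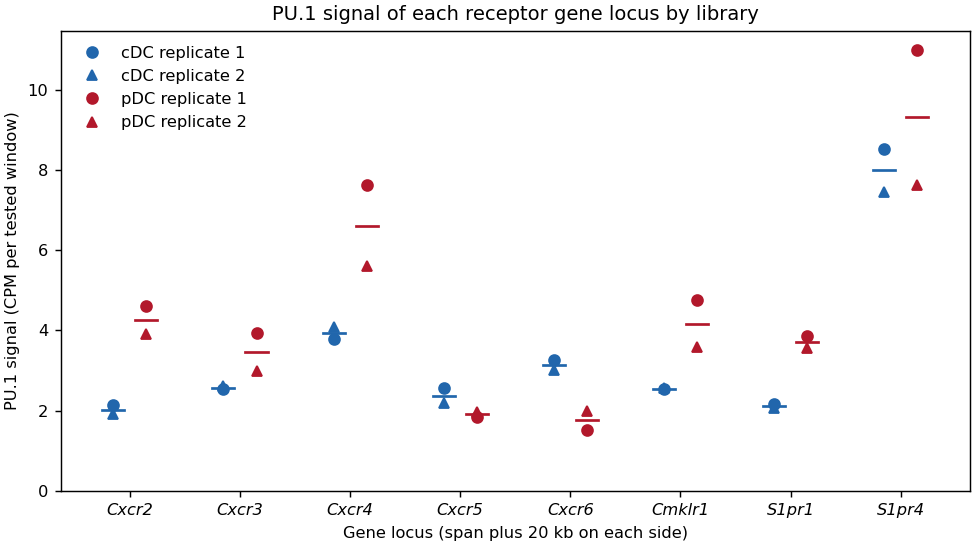
PU.1 signal of the 8 receptor gene loci with windows, in CPM per tested window so that loci can be compared, with 1 point per library and a bar at the mean of 2 libraries. Both pDC libraries lie above both cDC libraries at Cxcr2, Cxcr3, Cxcr4, Cmklr1 and S1pr1, both lie below at Cxcr5 and Cxcr6, and the groups overlap at S1pr4.

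**Figure D2:**
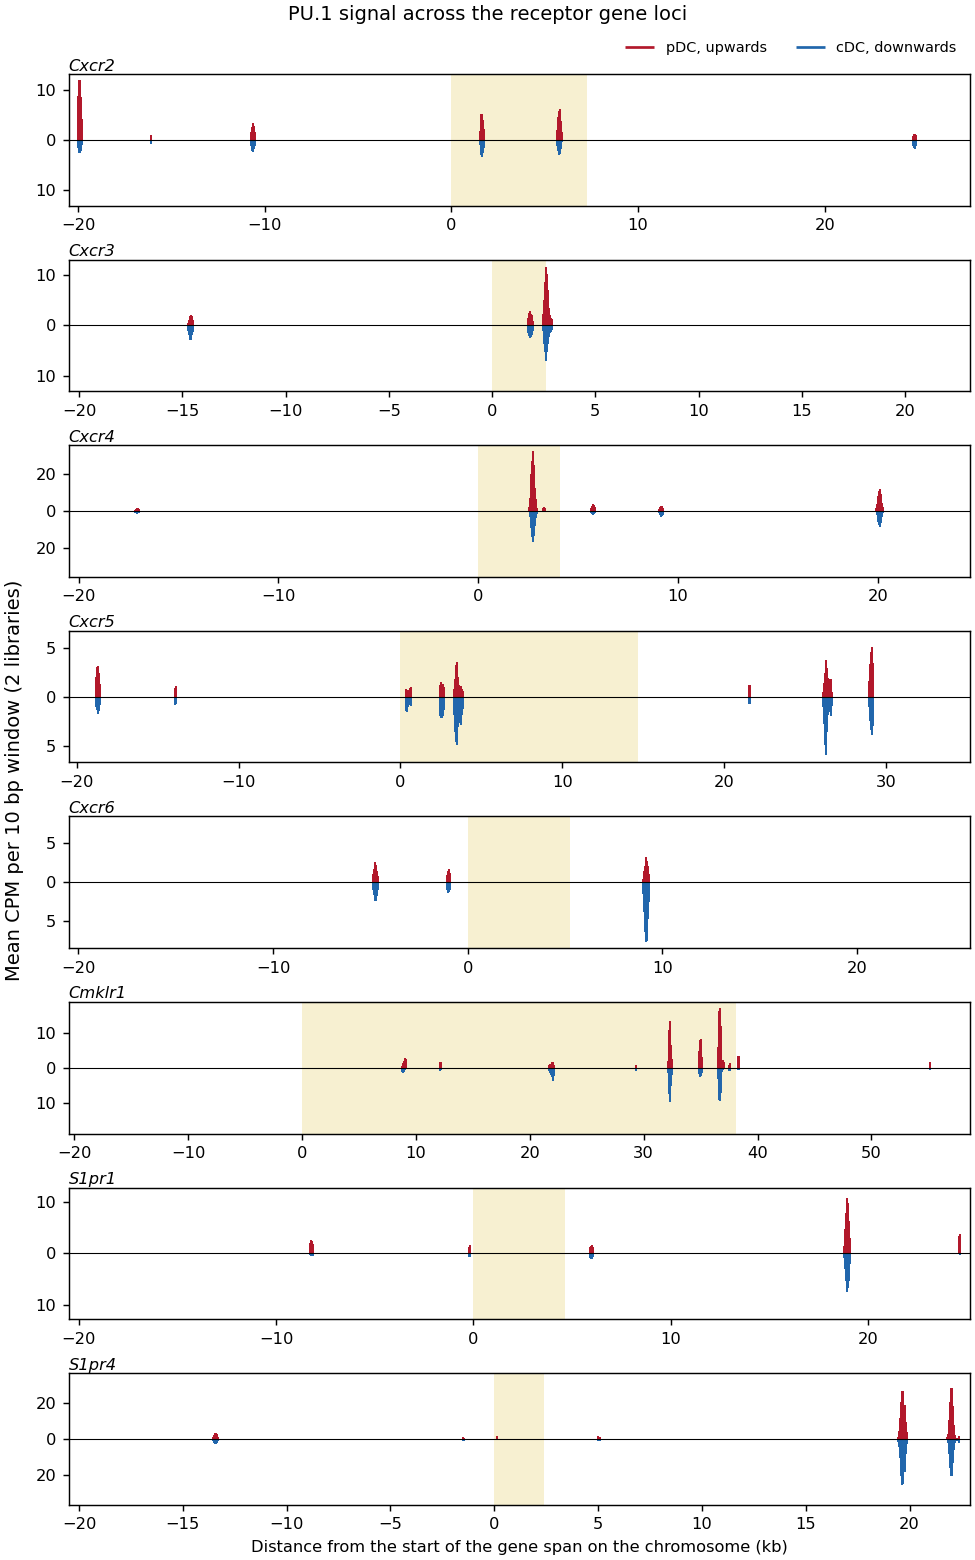
Mean PU.1 signal of each 10 bp window across the loci, in CPM over 2 libraries, with pDCs drawn upwards, cDCs drawn downwards and the gene span shaded. The horizontal axis is the distance from the start of the span in kb, and each panel has its own vertical scale. The S1pr1 and Cxcr6 spans hold no site, and the strongest S1pr4 signal lies beyond the span.

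Cxcr2 encodes the receptor for the neutrophil-attracting CXC ligands. Its span lies on chromosome 1 from 74153994 to 74161246 on the plus strand. The locus gave 53.2 and 47.8 CPM in cDC replicates 1 and 2 and 115 and 97.5 CPM in pDC replicates 1 and 2. Both pDC libraries were above both cDC libraries, as at 32.5% of all loci. The difference was 1.08 ± 0.16 on the log2 scale, 2.11-fold, with an adjusted p of 0.000282. Every window of this locus also lay in the locus of another gene.

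Most of the difference came from a site far upstream. It lies at chr1:74133901-74134210, 19.8 kb before the Cxcr2 span and inside the span of Rufy4, and it extends beyond the 20 kb flank. Its signal was 12.4 and 10.6 CPM in cDCs and 62.2 and 42.5 CPM in pDCs, without overlap. All 7 windows of the site were called higher in pDCs. Both pDC libraries reached the cutoff of the filter on low counts in all 7 and both cDC libraries in 4, so this count is a description. The log2 fold of the site was 2.19 ± 0.26, 4.55-fold, with an adjusted p of 0.000862. This call held under all 15 other settings tried. The 2 sites inside the Cxcr2 span were weaker than this site in pDCs but of similar level in cDCs. Site 3 gave 12 and 16.1 CPM in cDCs and 20.5 and 23.3 CPM in pDCs. Site 4 gave 13.4 and 8.88 CPM in cDCs and 27.7 and 17.2 CPM in pDCs. The libraries of these 2 sites did not overlap either, but neither was called. With the gene span alone, or with flanks of 10 kb, both of which leave out the upstream site, the Cxcr2 locus was called at 0.82. Which gene the upstream site acts on was not tested.

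Cxcr3 encodes the receptor for Cxcl9, Cxcl10 and Cxcl11, ligands induced by interferon. Its span lies on chromosome X from 101731535 to 101734147 on the minus strand. Site 3, at chrX:101734001-101734460, covers the annotated start of the gene and was the only site of the 44 that lay across an end of its gene span. It gave 32.2 and 31.7 CPM in cDCs and 64.3 and 41.7 CPM in pDCs. Both pDC libraries were above both cDC libraries, but replicate 1 was well above replicate 2. The log2 fold was 0.73 ± 0.24 and the adjusted p was 0.0567, so the site was not called, although 3 of its 10 windows were called higher in pDCs. Without pDC replicate 2 the value was 1.01 and was called, and without pDC replicate 1 it was 0.39 and was not. The locus gave 53.3 and 54.7 CPM in cDCs and 82.5 and 62.7 CPM in pDCs, with a log2 fold of 0.43 ± 0.18 and an adjusted p of 0.0989. It was called without pDC replicate 2, at 0.61, and with windows of a mean of at least 30 counts, at 0.75. It was 0.22 without pDC replicate 1 and 0.15 with flanks of 50 kb, not called in either.

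The start of Cxcr3 is shown because PU.1 signal lay directly on it. The sequences here are the 250 bases before a RefSeq start in GRCm38.p6, the assembly named mm10 in the browser, written 5′ to 3′ on the strand of the gene. Capitals mark a match to GNGGAAGT on either strand, where N is any base, so that ACTTCCTC is GAGGAAGT on the opposite strand. RefSeq sequences were at hand for 7 of the 9 genes. The Cxcr3 stretch is chrX:101734148-101734397 on the minus strand, and the Cxcr2 stretch, chr1:74153744-74153993 on the plus strand, is set beside it because it holds a match but no listed window.

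Cxcr3: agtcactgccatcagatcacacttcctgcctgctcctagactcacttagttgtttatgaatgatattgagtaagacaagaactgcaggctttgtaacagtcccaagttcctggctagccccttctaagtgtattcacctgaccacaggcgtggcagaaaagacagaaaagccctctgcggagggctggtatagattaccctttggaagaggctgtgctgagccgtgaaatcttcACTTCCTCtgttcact

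Cxcr2: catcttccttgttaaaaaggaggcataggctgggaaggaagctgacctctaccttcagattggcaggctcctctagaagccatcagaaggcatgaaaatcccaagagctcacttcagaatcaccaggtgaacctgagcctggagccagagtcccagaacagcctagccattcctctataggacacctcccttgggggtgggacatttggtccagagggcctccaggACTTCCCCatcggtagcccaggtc

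In Cxcr3 the match GAGGAAGT starts 16 bases before the start site, and its centre lay 4 bp from the strongest window of site 3. The 300 bases around the Cxcr3 start, 250 before and 50 after, held 6 listed windows. GAGGAAGT was found in 7.69% of the 6296 RefSeq promoters of this length that held a listed window and in 2.14% of the 26555 that held none. GNGGAAGT, which includes GAGGAAGT and was searched after the sequences had been seen, was found in 19.7% and 4.33%. The GGAA core inside both was found in 98.9% and 95.3%. A match is a description of these letters, and PU.1 binding to it was not measured at base level.

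Cxcr4 encodes the receptor for Cxcl12. The gene spans chromosome 1 from 128588199 to 128592299 on the minus strand, and its locus shares no window with another. The locus gave 125 and 135 CPM in cDCs and 252 and 185 CPM in pDCs. The pDC libraries did not overlap the cDC libraries, and replicate 1 was the higher pDC library. On the log2 scale the difference was 0.75 ± 0.15, 1.68-fold, with an adjusted p of 0.00205. The call was lost without cDC replicate 1, at 0.69.

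Most of the Cxcr4 signal came from site 2 inside the gene, at chr1:128590801-128591160, whose strongest window lies 1.34 kb from the start site. It stood at percentile 99.7 of all sites by signal per window. It gave 61.6 and 76.5 CPM in cDCs and 157 and 104 CPM in pDCs, so both pDC libraries were higher. The log2 fold was 0.92 ± 0.22, 1.89-fold, with an adjusted p of 0.0162. The site was not called with scaling by repeat windows, at 0.47, or at a minimum fold of 1.5. The call was lost without cDC replicate 1 at 0.77 and without cDC replicate 2 at 1.09, and the value was 0.60 without pDC replicate 1.

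Between that site and the start of Cxcr4 lay the weak site 3, at chr1:128591451-128591560, with 1.85 and 1.58 CPM in cDCs and 6.82 and 4.79 CPM in pDCs. Its log2 fold was 1.76 ± 0.49, 3.39-fold, with an adjusted p of 0.0300. It was not called with scaling by repeat windows, at 1.30, or at a minimum fold of 1.5. Its windows passed the filter through the pDC libraries alone, and the call was lost without cDC replicate 1 at 1.87 and without cDC replicate 2 at 1.65. Site 6, 15.8 kb upstream, was the other strong site, with 37.5 and 33.9 CPM in cDCs and 51.9 and 53.2 CPM in pDCs. Its groups did not overlap, but it was not called.

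Ackr3 encodes an atypical receptor that binds Cxcl12 and removes it from the surroundings without G-protein signalling. Its locus, on chromosome 1 from 90203980 to 90215724 with its flanks, held no listed window. The smallest summed count of a listed window over the 5 libraries was 33, so weaker signal at Ackr3 would not be seen.

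Cxcr5 encodes the receptor for Cxcl13, through which B cells enter follicles. The gene spans chromosome 9 from 44511787 to 44526444. The 7 sites of the locus did not move together: both cDC libraries were higher at 3 sites, both pDC libraries at 2, and the libraries overlapped at 2. None of the 7 was called. The strongest by total signal, site 5 at chr9:44515101-44515660 inside the gene, gave 40.1 and 30.7 CPM in cDCs and 23.0 and 16.2 CPM in pDCs. The cDC libraries were above the pDC libraries, with a log2 fold of −0.85 ± 0.27 and an adjusted p of 0.0524. The site was called without pDC replicate 1, at −1.12, without pDC replicate 2, at −0.62, and under 5 of the 13 further settings. Among those that did not call it, the value was −0.49 with windows of a mean of at least 30 counts and −0.65 without cDC replicate 1. At site 7 the order was the other way, with 13.7 and 17.2 CPM in cDCs and 19.6 and 20.4 CPM in pDCs.

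Over the Cxcr5 locus the signal was 115 and 98.7 CPM in cDCs and 82.7 and 88.6 CPM in pDCs, without overlap. On the log2 scale the difference was −0.32 ± 0.15 with an adjusted p of 0.140, so the locus was not called. With the gene span alone, or with flanks of 10 kb, it was called higher in cDCs at −0.76, and without pDC replicate 2 it was called at −0.37. With flanks of 50 kb the value was −0.16 and without cDC replicate 1 it was −0.21, not called in either. Of the tested windows of the locus, 64.4% were shared with other loci.

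Cxcr6 encodes the receptor for Cxcl16, a ligand that dendritic cells carry on their surface. Its span lies on chromosome 9 from 123806477 to 123811754 on the plus strand, within the span of Fyco1, and holds no site. The locus gave 49.0 and 45.3 CPM in cDCs and 22.9 and 29.8 CPM in pDCs. Both cDC libraries were above both pDC libraries, as at 27.4% of all loci. The log2 fold was −0.84 ± 0.21, 1.79-fold higher in cDCs, with an adjusted p of 0.0103. The call was lost without cDC replicate 1 at −0.79 and without cDC replicate 2 at −0.90. It was kept at −0.41 with flanks of 50 kb and at −1.40 with windows of a mean of at least 30 counts.

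That difference came from site 3, 3.75 kb downstream of Cxcr6 at chr9:123815501-123815810 and inside the span of Fyco1. Which gene site 3 acts on was not tested. It gave 35.1 and 33.4 CPM in cDCs and 9.10 and 17.0 CPM in pDCs, so both cDC libraries were higher. On the log2 scale the difference was −1.40 ± 0.31, 2.64-fold higher in cDCs, with an adjusted p of 0.0111, and 6 of its 7 windows were called. It was the only site of the 44 called higher in cDCs, and the call held under all 15 other settings. Upstream of the gene, site 1 gave 9.93 and 8.55 CPM in cDCs and 10.4 and 7.73 CPM in pDCs, with overlap.

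Cmklr1 encodes the receptor for chemerin, a ligand that is activated by proteases in inflamed tissue and attracts pDCs in humans and mice. On chromosome 5 its span runs from 113612355 to 113650475 on the minus strand and shares no window with another locus. The locus gave 127 and 128 CPM in cDCs and 237 and 179 CPM in pDCs, without overlap. The log2 fold was 0.71 ± 0.14, 1.64-fold, with an adjusted p of 0.00242. The call was lost without cDC replicate 1, at 0.70.

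With 9 sites Cmklr1 had the most of the receptor genes, and 3 of them were called higher in pDCs. Site 6, at chr5:113648851-113649410, gave 42.0 and 47.8 CPM in cDCs and 93.9 and 66.6 CPM in pDCs. Its log2 fold was 0.84 ± 0.21, 1.79-fold, with an adjusted p of 0.0217, and the call was lost without cDC replicate 1 at 0.74 and without cDC replicate 2 at 0.93. It was also lost with scaling by window totals, at 0.72, with scaling by repeat windows, at 0.38, and at a minimum fold of 1.5.

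Site 5 of Cmklr1, at chr5:113647201-113647460, gave 13.3 and 8.96 CPM in cDCs and 40.7 and 24.0 CPM in pDCs. Its log2 fold was 1.54 ± 0.33, 2.92-fold, with an adjusted p of 0.00906, and the call was lost without cDC replicate 2, at 1.29. Nor was site 5 called with scaling by repeat windows, at 1.14. Sites 5 and 6 lie inside the gene span but upstream of the RefSeq start used for its promoter sequence, by 3.75 kb for site 5 and 5.45 kb for site 6.

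Site 8, at chr5:113650601-113650760, lies 0.126 kb outside the Cmklr1 span, 7.10 kb upstream of that start. It gave 3.16 and 1.58 CPM in cDCs and 15 and 8.19 CPM in pDCs. The groups did not overlap, and all 4 windows were called but had passed the filter through the pDC libraries alone. On the log2 scale the difference was 2.30 ± 0.49, 4.91-fold, with an adjusted p of 0.00948, and the call was lost without cDC replicate 2, at 1.88. The RefSeq promoter of a long non-coding RNA gene, Gm52823, on the plus strand overlaps this site. Its 250 bases at chr5:113650494-113650743 are shown because they span most of site 8 and hold the same motif, in capitals.

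Gm52823: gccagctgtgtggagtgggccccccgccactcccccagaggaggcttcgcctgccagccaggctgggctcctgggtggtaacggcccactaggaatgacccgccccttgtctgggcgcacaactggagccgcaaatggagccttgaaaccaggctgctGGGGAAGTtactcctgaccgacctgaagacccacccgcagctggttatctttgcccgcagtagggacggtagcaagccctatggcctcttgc

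Here the match is GGGGAAGT, and its centre lay 50 bp from the strongest window of site 8. The promoter of Cmklr1 itself held no listed window and no match to GNGGAAGT.

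The remaining sites of Cmklr1 did not all follow. Site 3, inside the gene, gave 17.8 and 19.5 CPM in cDCs and 8.22 and 10.8 CPM in pDCs. Both cDC libraries were higher there and 3 windows were called higher in cDCs, but the site was not called. Site 4, at percentile 96.2 of all sites, gave 36.0 and 40.9 CPM in cDCs and 57.3 and 49.1 CPM in pDCs and was not called either. Over all windows, 7.96% were called higher in pDCs and 6.39% higher in cDCs, 14.3% in either direction. The Cmklr1 locus had 17 and 3 of its 50 tested windows called in these directions. The windows of sites 2, 8 and 9 passed the filter on low counts only through the pDC libraries. At site 3 both cDC libraries reached the cutoff of that filter in all 8 windows and both pDC libraries in 2. These counts of windows are therefore a description.

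S1pr1 encodes the S1P receptor that draws cells into blood and lymph, where S1P is abundant. On chromosome 3 its span runs from 115710433 to 115715055, holds no site and shares no window with another locus. The locus gave 38.9 and 37.2 CPM in cDCs and 69.4 and 64.1 CPM in pDCs, without overlap and with close replicates. The log2 fold was 0.81 ± 0.18, 1.76-fold, with an adjusted p of 0.00419. The call was lost without cDC replicate 1 at 0.84 and without cDC replicate 2 at 0.78, and with windows of a mean of at least 30 counts, at 0.47. With flanks of 10 kb the locus was called at 1.28. The locus sums the windows of sites 1, 2 and 5, which passed the filter on low counts through the pDC libraries alone. Its call rests partly on them.

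All 5 S1pr1 sites had both pDC libraries above both cDC libraries, as 29.1% of all sites did, and 2 were called. Sites 1, 2 and 5 passed the filter on low counts only through the pDC libraries, so this order is a description. Site 1, at chr3:115702151-115702310 and 8.12 kb outside the span, gave 2.02 and 1.99 CPM in cDCs and 8.59 and 9.27 CPM in pDCs. Its log2 fold was 2.15 ± 0.44, 4.43-fold, with an adjusted p of 0.00803. With scaling by repeat windows it was 1.60 and not called. The call was lost without cDC replicate 1 at 2.15 and without cDC replicate 2 at 2.14.

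Site 5 of S1pr1, at chr3:115735001-115735110, lies 19.9 kb outside the span and reaches beyond the flank. Its summed counts were 10 and 8 in cDCs and 127 and 35 in pDCs, or 0.879 and 0.664 CPM against 16.1 and 5.41 CPM. Both pDC libraries were above both cDC libraries, and replicate 1 was well above replicate 2. On the log2 scale the difference was 3.79 ± 0.61, 13.8-fold, with an adjusted p of 0.00261, and it was 2.79 without pDC replicate 1. Its 3 windows held 1 to 5 counts each in the cDC libraries and passed the filter through the pDC libraries alone, as did the 4 windows of site 1. Site 4, at chr3:115729201-115729510 and 14.1 kb outside the span, was the strongest, with 32.1 and 29.9 CPM in cDCs and 43.2 and 44.0 CPM in pDCs. Its log2 fold was 0.49 ± 0.21 with an adjusted p of 0.141, so the strongest site was not called.

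S1pr4 encodes an S1P receptor found mainly on blood cells. On chromosome 10 its span runs from 81497745 to 81500137 on the minus strand, and every window of the locus is shared with a neighbour. This locus had the highest signal per window of the 8, at a mean of 8.65 CPM per window, with 2.14 at Cxcr5, the lowest. It gave 239 and 209 CPM in cDCs and 308 and 214 CPM in pDCs, so that pDC replicate 2 lay between the cDC libraries. The log2 fold was 0.22 ± 0.15 with an adjusted p of 0.331. Without pDC replicate 2 it was called, at 0.46, and without pDC replicate 1 it was −0.06.

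The S1pr4 signal came mainly from sites 4 and 5, inside the span of the neighbour Gna15. Site 4, at chr10:81517201-81517610 and 17.1 kb upstream of S1pr4, gave 124 and 110 CPM in cDCs and 134 and 110 CPM in pDCs. It stood at percentile 99.8 of all sites, and its log2 fold was 0.06 ± 0.18 with an adjusted p of 0.871. Site 5 gave 95.9 and 81.5 CPM in cDCs and 151 and 83.8 CPM in pDCs, with overlap. The site inside the S1pr4 span was among the weakest, with 0.527 and 0.415 CPM in cDCs and 1.39 CPM in each pDC library.

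**Figure D3:**
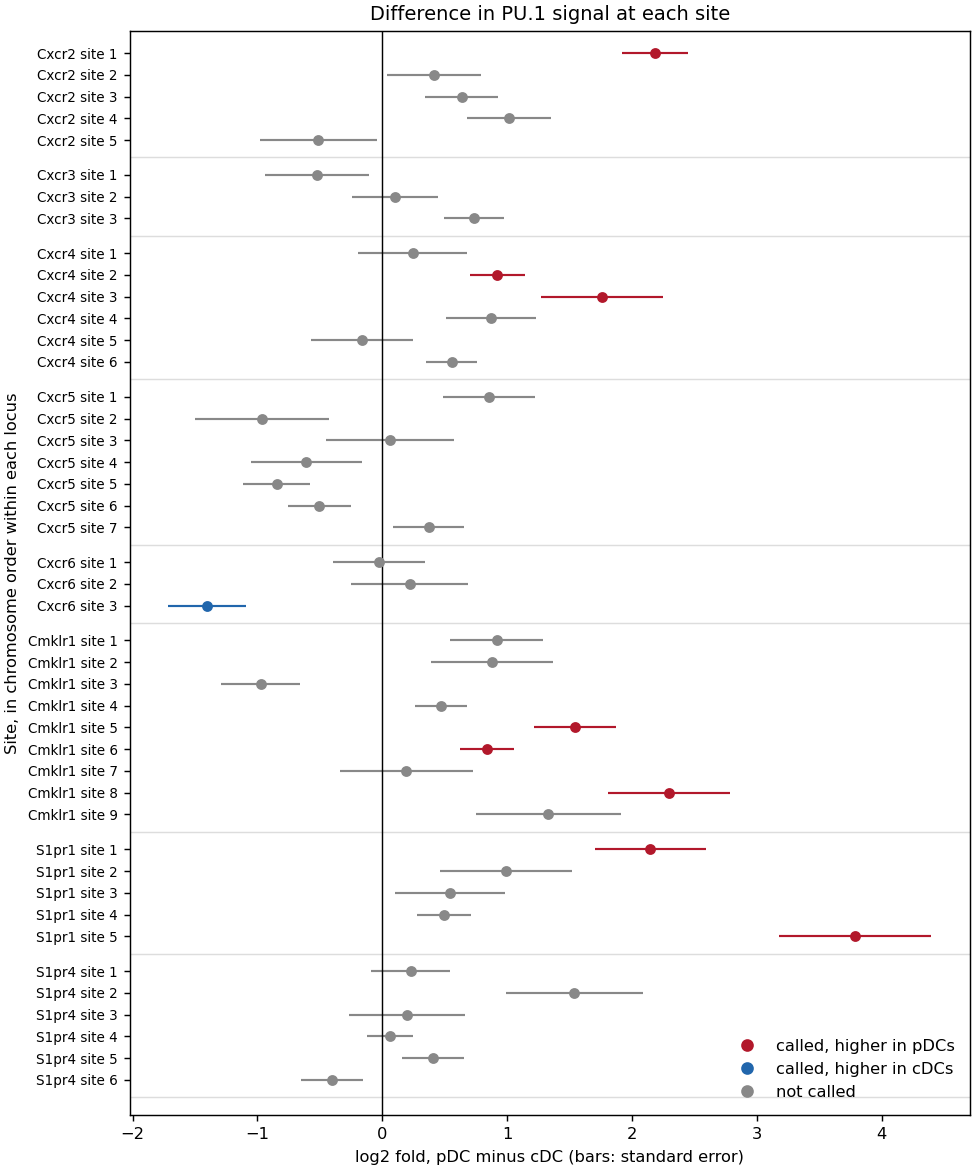
Log2 fold (pDC minus cDC) of each of the 44 sites with its standard error, in chromosome order within each locus, n = 2 libraries per cell type. The 8 sites called higher in pDCs lie at Cxcr2, Cxcr4, Cmklr1 and S1pr1, the 1 called higher in cDCs is Cxcr6 site 3, and Cxcr3, Cxcr5 and S1pr4 have no called site.

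Across the receptor genes, the sites were distributed inside and outside the gene spans, with 18 inside and 26 outside, and the 9 called sites were 4 and 5 of these. They had a median width of 210 bp, the same as over all sites, and a median signal of 1.92 CPM per window against 1.60 over all sites. Of the 44 sites, 8 were in the top 10% of all sites by signal per window and 16 were in the bottom 50%. Both pDC libraries were above both cDC libraries at 24 of the 44 sites and both cDC libraries were above at 6, where 29.1% and 29.3% of all sites were. Of the 44 sites, 8 passed the filter on low counts only through the pDC libraries, and all 8 are among the 24. Another 2 passed only through the cDC libraries, so these counts are a description. Of the 8 sites in the top 10%, 3 were called, and 6 of the other 36 were, among them 2 of the 16 in the bottom 50%. The median percentile was 83.2 for the called sites and 60.5 for all 44. Over all sites of any level 14.7% were called, and their share at each level was not obtained. Whether the link of level to calls is particular to these genes was therefore not tested.

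The replicates of pDCs were not equal at the called sites. Replicate 1 was above replicate 2 at 7 of the 8 sites called higher in pDCs, at 25 of the 44 sites and at 49.4% of all sites. The pDC libraries also differed in the share of counts in repeat windows, 10.1% in replicate 1 and 18.0% in replicate 2, and the part of this in the results was not tested. Leaving out pDC replicate 1 left 9 sites called higher in pDCs and 2 higher in cDCs, where 9.97% and 8.24% of all sites were called. Without pDC replicate 2 there were 15 and 5, against 16.0% and 16.5% of all sites. Without cDC replicate 1 there were 4 and 1, against 3.29% and 2.08%, and without cDC replicate 2 there were 2 and 1, against 3.38% and 1.99%. The numbers of calls over all sites thus moved with the library left out as well.

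**Figure D4:**
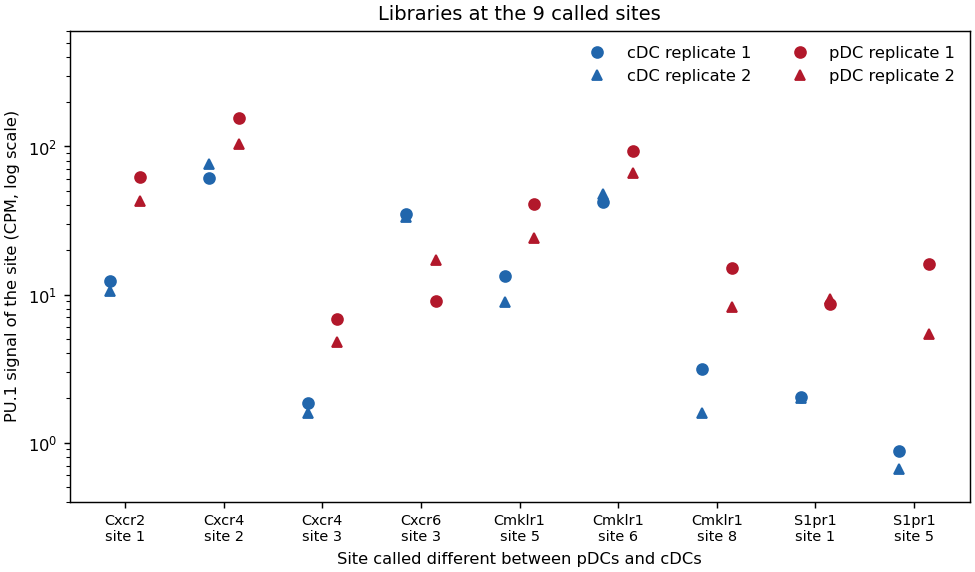
PU.1 signal in each library at the 9 called sites, in CPM on a log scale, with cDC libraries in blue and pDC libraries in red. The cDC and pDC libraries do not overlap at any of the 9 sites, and S1pr1 site 5 rises from 0.879 and 0.664 CPM in cDCs to 16.1 and 5.41 CPM in pDCs.

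Against the input, 23 of the 44 sites were above it in cDCs and 27 in pDCs, requiring a fold of 2 or more and an adjusted p below 0.05, with window totals as library sizes. The shares over all sites were 48.6% and 45.4%. Of the 44 sites, 21 were above input in both cell types and 15 in neither. With these library sizes, the 8 sites called higher in pDCs were all above input in pDCs. Cxcr2 site 1, Cxcr4 site 2 and Cmklr1 sites 5 and 6 were above input in cDCs as well, and Cxcr4 site 3, Cmklr1 site 8 and S1pr1 sites 1 and 5 were not. The last 4 had 3, 2, 2 and 2 input counts, and a site that was not above input may still be bound at a level this depth does not show. Cxcr6 site 3, the site called higher in cDCs, was above input in cDCs and not in pDCs. Without repeat windows the counts fell to 5 sites in cDCs and 9 in pDCs, and 8.22% and 8.63% of all sites. Repeat windows held 74.6% of the input counts and 9.15% to 18.0% of those of the PU.1 libraries. Folds over input are therefore larger with window totals than with repeat windows left out. With window totals the log2 fold over input in cDCs was 1.60 at Cxcr2 site 1 and 2.24 at Cxcr6 site 3. Which of the named sites stayed above input without repeat windows was not obtained.

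The loci of other genes in the same pathways were compared in the same fit. They are grouped by role and none is among the 9 receptor genes. Among 12 loci of CXC and chemerin ligands, 2 were called higher in cDCs, 1 was called higher in pDCs and 9 were not called, with a median log2 fold of −0.34. Over all loci 7.98% were called higher in cDCs and 11.0% higher in pDCs. Pf4, Ppbp and Cxcl3 gave identical values in every library, with all windows shared. The 12 loci and their median therefore count the same signal more than once. Cxcl16, whose product is the ligand of Cxcr6, gave 210 and 182 CPM in cDCs and 97.3 and 130 CPM in pDCs, a log2 fold of −0.79 ± 0.15 and an adjusted p of 0.00161. Cxcl10, a ligand of Cxcr3, gave 33.4 and 36.0 CPM in cDCs and 14.7 and 18.7 CPM in pDCs, −1.06 ± 0.24 with an adjusted p of 0.00564. Rarres2, which encodes chemerin, gave 9.14 and 8.05 CPM in cDCs and 15.4 and 18.7 CPM in pDCs, 0.99 ± 0.31 with an adjusted p of 0.0325. None of these groups overlapped, and all windows of the 3 loci are shared with neighbouring loci.

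Among 8 further chemokine, chemerin and S1P receptor loci, 1 was called in each direction and the median log2 fold was 0.06. Of all loci, 11.0% were called higher in pDCs and 7.98% higher in cDCs. Ackr4, an atypical receptor that clears Ccl19 and Ccl21, gave 4.48 and 3.98 CPM in cDCs and 19.6 and 17.2 CPM in pDCs, and its log2 fold was 2.12 ± 0.33 with an adjusted p of 0.000460. S1pr2, an S1P receptor known for restraining migration, gave 53.5 and 47.2 CPM in cDCs and 27.6 and 28.1 CPM in pDCs, and its log2 fold was −0.86 ± 0.20 with an adjusted p of 0.00636. S1pr2 thus lay in the opposite direction to S1pr1, and whether their differences differ was not tested. All windows of the Ackr4 locus and 77.8% of those of S1pr2 are shared.

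Genes for the synthesis, export and breakdown of S1P gave 11 loci with a median log2 fold of −0.01, and edgeR's quasi-likelihood test called 0 of them. At an unadjusted p below 0.05, 2 were higher in pDCs and 1 in cDCs, the smallest adjusted p was 0.0829, and DESeq2 also called 0.

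Genes of receptor signalling and desensitisation gave 27 loci, of which 20 were not called, 5 were called higher in cDCs and 2 higher in pDCs, with a median log2 fold of −0.03. Over all loci 7.98% were called higher in cDCs and 11.0% higher in pDCs, 19.0% in either direction. Rgs13 and Rgs14 encode regulators that end G-protein signals. Rgs13 gave 15.1 and 16.3 CPM in cDCs and 47.1 and 35.4 CPM in pDCs, a log2 fold of 1.40 ± 0.24 with an adjusted p of 0.000804, and none of its windows is shared. Rgs14 differed less, by 0.45 ± 0.14 with an adjusted p of 0.0313. Higher in cDCs were Pik3r5, a subunit of the lipid kinase that chemokine receptors activate, at −0.48 ± 0.11 with an adjusted p of 0.00491, Arrb2, an arrestin that desensitises receptors, at −0.63 ± 0.14 with 0.00522, and the G-protein subunit gene Gnb1 at −0.49 ± 0.12 with 0.0101. All windows of the Rgs14 and Arrb2 loci are shared with other loci, as are 84.5% of those of Gnb1 and 51.4% of those of Pik3r5.

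The loci most like 2 of the receptor loci across the 4 PU.1 libraries were found by the root mean square difference of log2 CPM. Closest to Cxcr2 were Morn5 at 0.0634, Adcy9 at 0.0646 and Pax5 at 0.107. Pax5, the gene of a B cell transcription factor, gave 48.4 and 51.9 CPM in cDCs and 107 and 94.7 CPM in pDCs. Closest to Cxcr6 were Tmigd1 at 0.0405, Cwh43 at 0.0605 and Pigh at 0.0662. These values describe likeness over 4 libraries and were not tested.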

How the data were processed

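The deposited values are read counts per 10 bp window on a 50 bp grid, which the authors left unnormalised. The submitters' processing notes name Subread 1.4.4 and mm10. How reads were extended and windows chosen is not given in the sources used here. A read can count in several windows, so totals over windows are not sequencing depth, which is unknown. Of 329996 listed windows, 286435 passed filterByExpr of edgeR 4.0.16 (R 4.3.3) at a minimum count of 10.

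Sites were made by joining windows up to 100 bp apart, with a split at 5000 bp, and their counts were summed. Gene spans and promoter sequences came from RefSeq GRCm38.p6, which shares its coordinates with mm10, and a window could count for several loci. pDC and cDC libraries were compared with edgeR's quasi-likelihood test, TMM factors, no term besides cell type, and Benjamini-Hochberg adjustment at 0.05 over all sites, loci or windows. The biological coefficient of variation was 0.158. CPM used the TMM-scaled totals, and motifs were searched on both strands. The input comparison was fitted on all 5 libraries, with the single cDC input serving both cell types on the assumption that it varies as the PU.1 libraries do. With 2 libraries against 2, the smallest two-sided exact permutation p is 0.333, so no permutation test was run. The p-values printed come from the fit across all features, which shares its estimate of the spread between them.

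Named were all 9 genes. The sites named with a fold were, per gene, the site of highest mean CPM, those across a span end and the called ones. Pathway loci were named as the called ones, at most 3 per list and direction, and likeness used the receptor locus of smallest adjusted p in each direction. Members, gene lists and tests were chosen with earlier results of these data known. Other scalings, filters, flanks, a replicate block, DESeq2 1.42.0 and leaving out each library were tried.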

Additional observations from a re-analysis of the deposited data

How the results depend on the processing

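The direction of the 9 called sites and 5 called loci was the same under every setting that gave a value, but calls depended on the library set, the scaling and the fold asked for. Sites higher in pDCs, 8 in the report, numbered 5 with windows of a mean of at least 30 counts, 5 at a minimum fold of 1.5, 3 with scaling by repeat windows and 2 to 15 with a library left out. Sites higher in cDCs, 1 in the report, numbered 3 with scaling by window totals, 2 with no filter, 2 with repeat windows left out, 2 with all 5 libraries, 2 with the replicate block and 1 to 5 with a library left out. Loci higher in pDCs, 4 in the report, numbered 1 at a minimum fold of 1.5, 0 with scaling by repeat windows (0 at an unadjusted p below 0.05 as well) and 1 to 6 with a library left out. Loci higher in cDCs, 1 in the report, numbered 2 with flanks of 10 kb, 0 at the minimum fold (1 unadjusted), 0 with scaling by repeat windows (1 unadjusted) and 0 to 2 with a library left out. DESeq2 called 8 and 1 sites and 4 and 1 loci. Windows higher in pDCs, 43, numbered 14 with DESeq2, 21 at the mean of 30 counts, 24 at the minimum fold, 4 with scaling by repeat windows and 13 to 66 with a library left out. Windows higher in cDCs, 10, numbered 1 with DESeq2, 4 at the mean of 30 counts, 2 at the minimum fold and 1 to 13 with a library left out. Sites above input numbered 5 in cDCs and 9 in pDCs with repeat windows left out, and 21 to 27 and 24 to 29 with a library left out.

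Pathway loci higher in pDCs, 4, numbered 2 with scaling by window totals, 0 at the mean of 30 counts (3 unadjusted), 2 at the minimum fold, 0 with scaling by repeat windows (1 unadjusted) and 2 to 9 with a library left out. Those higher in cDCs, 8, numbered 5 with gene spans alone, 0 at the minimum fold (4 unadjusted), 0 with scaling by repeat windows (6 unadjusted) and 0 to 14 with a library left out. Uncalled values that changed sign were the Cxcr3 locus, −0.042, the S1pr4 locus, −0.22, S1pr1 site 4, −0.031, and S1pr4 site 4, −0.41, with scaling by repeat windows. S1pr4 site 4 was also −0.060 with window totals and −0.091 to 0.20 with a library left out (−0.022 without cDC replicate 2), and the S1pr4 locus was −0.065 to 0.46 with a library left out. The causes were not tested.

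Scaling by window totals moved the median of all sites by −0.13 and gave 4112 sites higher in pDCs and 5110 in cDCs, against 5074 and 3794 in the report's fit. The shift with repeat windows was −0.53. Same-numbered replicates did not deviate together (correlation 0.0169, 2 pairs), and the replicate block called 9 and 2 sites and 4 and 1 loci. Keeping only sites wholly within the flanks, chosen after seeing the data, left 6 and 1. With 2 libraries per cell type and as few as 8 counts at a called site, weak sites such as S1pr1 site 5 rest on little depth.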
